A study of Homo sapiens with 6 samples.

Results

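The genes described here encode the subunits of the 5 complexes of oxidative phosphorylation. They were taken from the deposited gene table by symbol: NDUFA, NDUFB, NDUFC, NDUFS or NDUFV with a number, SDHA to SDHD, UQCR, CYC1, COX4 to COX8 followed by A, B or C, ATP5, and the mRNAs of the mitochondrial genome. No COX4 gene has such a symbol, so COX4I1 and COX4I2 fall outside the rule. The rule gave 101 of 23827 rows, of which 97 were subunit genes, 84 nuclear and 13 mitochondrial. ATP5IF1, an inhibitor of the ATP synthase, was the 1 inhibitor, and the readthrough genes ATP5MF-PTCD1 and NDUFC2-KCTD14 and the ATP5MG-like gene ATP5MGL made up the other 3. All 101 rows are annotated as protein coding. NDUFA4 and NDUFA4L2 carry complex I names but the NDUFA4 protein belongs to complex IV, so both were grouped there.

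Oxidative phosphorylation runs on the inner mitochondrial membrane. Complexes I and II pass electrons from NADH and succinate to coenzyme Q, complex III passes them to cytochrome c, and complex IV gives them to oxygen. Complexes I, III and IV pump protons as they do so, and complex V, the ATP synthase, makes ATP from the proton gradient. All complexes but complex II join nuclear-encoded subunits to subunits encoded in mitochondrial DNA, and lactate, once oxidised to pyruvate, is itself a fuel of this chain.

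The cells were A549, an established human lung adenocarcinoma line. The LAC group was kept for 24 h with 20 mM lactic acid in the medium, and the PBS group for 24 h with phosphate-buffered saline in its place. Each group had 3 libraries of poly(A) RNA that the labels call biological replicates, and p-values measure the spread between these libraries only. Lactic acid adds an acid as well as lactate, and no sample separates the effects of lactate from those of acidity here.

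Totals were 35678633, 42938870 and 37935496 counts in the LAC libraries and 33946788, 33492831 and 39023674 counts in the PBS libraries. Mitochondrially encoded genes held 8.88% to 10.1% of counts in LAC and 9.47% to 10.6% in PBS. The keratins KRT8, KRT18 and KRT7 of epithelial cells were each at 899 CPM or more in all 6 libraries. The epithelial adhesion molecule EPCAM had 1.12, 1.90 and 1.84 CPM in LAC and 3.83, 3.18 and 2.85 CPM in PBS, so this marker was low in both groups and lower in LAC (log2 fold change -1.01, adjusted p = 0.00427). Of 6 epithelial markers 4 fell, EPCAM, the adhesion molecule CDH1 (-0.77), KRT7 (-0.52) and KRT18 (-0.20), and KRT19 rose (0.18). Their sum ran from 4056 to 4155 CPM in LAC and from 4760 to 5037 CPM in PBS. CPM are counts scaled to a library of 1000000 with TMM factors. Of 13 markers of blood, stromal, endothelial and muscle cells, 10 were under 1 CPM and 4 of these, CD3E, LYZ, CDH5 and DES, were at 0 in every library. Their sum ran from 107 to 117 CPM in LAC and from 144 to 162 CPM in PBS, nearly all of it COL1A1 and CD68, and the part of either marker difference in the results below was not tested.

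Nuclear-encoded subunits were more often higher than lower after lactic acid, by small amounts, and they were mainly the small subunits around the catalytic cores. Of 84 nuclear subunit genes, 80 had enough counts to be tested with edgeR's quasi-likelihood test, and a gene was called at a Benjamini-Hochberg adjusted p under 0.05 over all 15474 genes tested. Among the 80, 26 rose (32.5%) and 4 fell (5.0%), where over all genes tested 18.7% were called higher and 16.7% lower. The median log2 fold change was 0.09 for the 80 nuclear subunits and 0.0024 for all genes. The groups did not overlap, with every LAC library above every PBS library, for 26 of the 80 nuclear subunits, against 24.4% of all genes, and with every LAC library below for 7, against 23.1%. The 13 mitochondrial mRNAs had 2 rises, 2 falls and a median of -0.04. In bulk RNA, a change in RNA per cell and a change in the makeup of the cells cannot be told apart.

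The share of nuclear-encoded subunits called higher was largest in complex IV, at 8 of 13 tested with a median log2 fold change of 0.26. Complex III had 4 rises among 10 (median 0.16), complex V 6 among 17 (median 0.10), complex I 7 among 36 (median 0.04) and complex II 1 among 4 (median -0.03). The 4 falls were 3 subunits of complex I, NDUFB9, NDUFS8 and NDUFV1, and CYC1 of complex III. With NDUFA4 and NDUFA4L2 counted by name, complex I had 8 rises and 3 falls among 38 and complex IV 7 rises among 11. The nuclear-encoded subunits called higher numbered 17 without LAC library 1, 17 without LAC library 2, 16 without PBS library 2 and 15 without PBS library 3, with 4 or 5 lower in each of the 6 fits that left a library out. On log2(FPKM + 1) values tested with limma-trend, 14 were called higher and 7 lower. With no filter on those values 10 were called higher, which were 5 in complex IV, 3 in complex I, 1 in complex III and 1 in complex V.

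**Figure D1:**
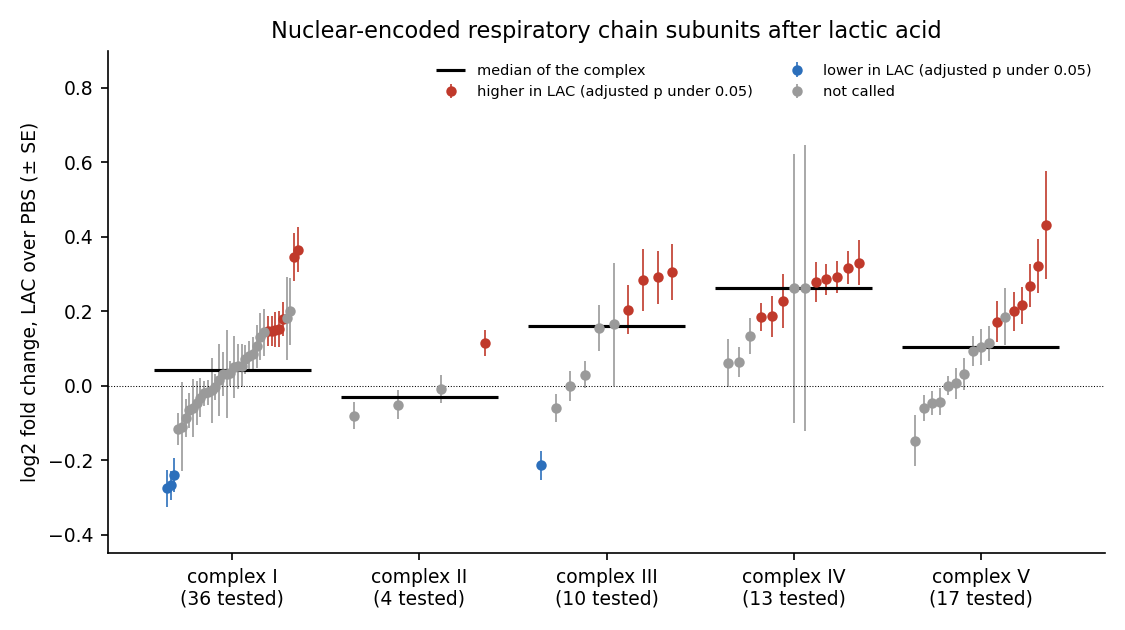
Log2 fold change (LAC over PBS) with its standard error for the 80 tested nuclear subunits, sorted within each complex. Red points were called higher, blue points lower and grey points not called, and black bars mark the medians, which run from -0.03 in complex II to 0.26 in complex IV; the long error bars in complex IV belong to NDUFA4L2 and COX6B2, which were under 1 CPM.

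Nuclear subunit genes are known to share promoter motifs for the transcription factors NRF1, GABPA and YY1. RefSeq windows on GRCh38.p14, from 250 bases before to 50 bases after each gene's start (300 bases), matched 65 of the 84 nuclear subunit genes, 62 of them tested. Genes were matched by Ensembl identifier, or by symbol where that gave no match. The windows of 4 genes are shown as examples. UQCR11 of complex III and COX8A of complex IV rose, and NDUFV1 and NDUFS8 of complex I are the 2 members that fell and had a window. They do not stand for their classes: the NRF1 letters lay in 8 of 19 windows of members that rose and in 18 of 41 of members not called. Capitals mark matches on either strand to GCGCANGC (the core of the NRF1 motif), CCGGAAGT (GABPA, of the ETS family) and AAGATGGC (YY1). The windows lie at chr19:1605413-1605712 on the minus strand (UQCR11), chr11:63974370-63974669 on the plus strand (COX8A), chr11:67606686-67606985 on the plus strand (NDUFV1) and chr11:68030431-68030730 on the plus strand (NDUFS8), and each is written 5′ to 3′ along its gene. The start is that of RefSeq. For NDUFV1 it differs from GENCODE, whose extent of the gene begins further upstream, so that its window lies inside that extent.
UQCR11: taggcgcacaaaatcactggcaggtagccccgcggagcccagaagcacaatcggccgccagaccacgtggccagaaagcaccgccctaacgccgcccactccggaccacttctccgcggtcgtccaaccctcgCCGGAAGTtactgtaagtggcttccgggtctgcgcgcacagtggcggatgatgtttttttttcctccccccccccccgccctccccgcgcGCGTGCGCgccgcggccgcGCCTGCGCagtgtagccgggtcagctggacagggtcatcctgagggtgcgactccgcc
COX8A: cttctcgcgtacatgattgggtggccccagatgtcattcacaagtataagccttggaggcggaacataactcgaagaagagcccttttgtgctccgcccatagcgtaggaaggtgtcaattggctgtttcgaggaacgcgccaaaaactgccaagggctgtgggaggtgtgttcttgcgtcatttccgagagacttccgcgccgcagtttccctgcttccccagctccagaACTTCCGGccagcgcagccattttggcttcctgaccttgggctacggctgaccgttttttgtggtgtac
NDUFV1: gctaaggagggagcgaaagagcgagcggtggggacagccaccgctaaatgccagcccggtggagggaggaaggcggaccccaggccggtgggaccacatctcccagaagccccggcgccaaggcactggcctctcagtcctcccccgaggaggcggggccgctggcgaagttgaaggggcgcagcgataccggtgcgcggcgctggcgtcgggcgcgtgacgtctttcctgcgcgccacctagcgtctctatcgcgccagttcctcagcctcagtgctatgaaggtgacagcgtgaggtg
NDUFS8: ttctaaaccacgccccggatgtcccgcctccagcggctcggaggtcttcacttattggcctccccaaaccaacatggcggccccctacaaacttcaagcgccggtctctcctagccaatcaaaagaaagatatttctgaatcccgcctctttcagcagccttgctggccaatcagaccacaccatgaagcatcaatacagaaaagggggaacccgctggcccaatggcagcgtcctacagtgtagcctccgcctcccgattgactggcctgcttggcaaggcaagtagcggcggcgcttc
The UQCR11 window holds 2 NRF1 matches and 1 GABPA match, and the COX8A window 1 GABPA match on the reverse strand. No match to these letters lies in the NDUFV1 and NDUFS8 windows, which for NDUFV1 covers the RefSeq start alone.

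Over the 62 subunit windows, the share with each motif was above that of protein-coding promoters at large. The NRF1 letters were found in 41.9% of the subunit windows, against 16.7% of 15843 protein-coding windows and 12.5% of all 27305 windows. The GABPA letters were found in 14.5%, against 6.19% and 4.44%, and the YY1 letters in 17.7%, against 3.91% and 3.03%. Among subunits that rose and had a window, 8 of 19 held the NRF1 letters (NDUFA8, NDUFB4, NDUFV2, UQCR10, UQCR11, COX6B1, ATP5ME and ATP5PF), 3 of 19 the GABPA letters (UQCR11, UQCRQ and COX8A) and 1 of 19 the YY1 letters (ATP5PF). Among subunits with a window that were not called, the counts were 18, 6 and 10 of 41, and of the 2 that fell 0 held any of these letters. Other spellings of the motifs were not searched. These are matches of letters and not tests of binding, and the called classes were not compared by a test.

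Complex IV, cytochrome c oxidase, has a catalytic core encoded in mitochondrial DNA and a coat of nuclear subunits that stabilise and tune it. Of the 10 structural nuclear subunits that the name rule took, 7 rose and the other 3 had positive fold changes that were not called. The rule leaves out COX4I1, which had 181, 176 and 168 CPM in LAC and 169, 165 and 157 CPM in PBS and was not called. Summed over the nuclear subunits taken by the rule, transcripts stood at 931, 921 and 865 CPM in the LAC libraries and at 818, 770 and 774 CPM in the PBS libraries, a ratio of means of 1.15. The same ratio was 1.01 for complex I, 1.00 for complex II, 1.03 for complex III and 1.03 for complex V.

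COX6C, a small subunit that spans the membrane, had 63.9, 65.0 and 60.7 CPM in LAC and 52.2, 47.8 and 52.2 CPM in PBS. It rose 1.25-fold (log2 fold change 0.32, SE 0.04, adjusted p = 0.000195), with all LAC libraries above all PBS libraries. NDUFA4, a late-joining subunit of the complex, had 96.0, 91.8 and 90.6 CPM in LAC and 79.8, 74.1 and 73.5 CPM in PBS. It rose 1.22-fold (log2 fold change 0.29, SE 0.04, adjusted p = 0.00025), again without overlap. COX7A2L, a relative of COX7A2 that takes part in joining complexes III and IV into supercomplexes, had 87.7, 91.8 and 85.1 CPM in LAC and 70.8, 75.5 and 70.7 CPM in PBS. It rose 1.22-fold (log2 fold change 0.29, SE 0.04, adjusted p = 0.000271), and its lowest LAC library stood above its highest PBS library.

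COX7A2, the isoform of subunit 7A found in most tissues, had 43.3, 38.6 and 37.4 CPM in LAC and 32.8, 29.6 and 32.3 CPM in PBS. It rose 1.26-fold (log2 fold change 0.33, SE 0.06, adjusted p = 0.00141) without overlap. COX7B, a small subunit needed for assembly of the complex, had 67.0, 61.6 and 57.1 CPM in LAC and 52.9, 49.3 and 50.8 CPM in PBS. It rose 1.21-fold by counts (log2 fold change 0.28, SE 0.05, adjusted p = 0.00191), but the deposited FPKM went the other way. Those were 86.7, 112 and 63.9 in LAC and 96.4, 90.5 and 93.7 in PBS, so the direction of COX7B depends on which deposited table is read. COX6B1, which faces the space between the membranes near the cytochrome c site, had 124, 120 and 121 CPM in LAC and 110, 104 and 107 CPM in PBS, a rise of 1.14-fold (adjusted p = 0.00239) without overlap. With the trend with transcript length removed, its adjusted p was 0.0545.

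COX8A and COX7C, small membrane subunits named after their values were seen to complete the count, rose 1.14-fold (adjusted p = 0.0202) and 1.17-fold (adjusted p = 0.0298). The COX7C libraries overlapped, with 96.9, 87.5 and 79.6 CPM in LAC and 82.7, 70.1 and 72.6 CPM in PBS. Both calls were lost without LAC library 1, LAC library 2, PBS library 2 or PBS library 3, where the adjusted p reached 0.0838 for COX8A and 0.115 for COX7C. COX6A1 (log2 fold change 0.13, adjusted p = 0.0539), COX5A (0.06, adjusted p = 0.254) and COX5B (0.06, adjusted p = 0.511) were not called.

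The tissue-restricted isoforms of the complex were close to absent from A549 cells in both groups. COX7B2 had 0 counts in all libraries, COX6A2 had 3 counts in 1 PBS library, COX8C had 2 counts in 1 PBS library, and COX7A1, the muscle isoform of subunit 7A, had 3, 1 and 0 counts in LAC and 3, 5 and 4 in PBS. COX6B2, the testis isoform of subunit 6B, stood at 0.477, 0.376 and 0.4 CPM in LAC and 0.442, 0.327 and 0.277 CPM in PBS (log2 fold change 0.26, adjusted p = 0.64). NDUFA4L2, which is known as a hypoxia-induced relative of NDUFA4, stood at 0.533, 0.94 and 0.667 CPM in LAC and 0.412, 0.831 and 0.554 CPM in PBS (0.26, adjusted p = 0.616). Neither isoform was separated between groups at this depth. COX4I1, the usual isoform of subunit 4, falls outside the name rule and showed a log2 fold change of 0.10 (adjusted p = 0.0896), and its relative COX4I2 had 0 counts.

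**Figure D2:**
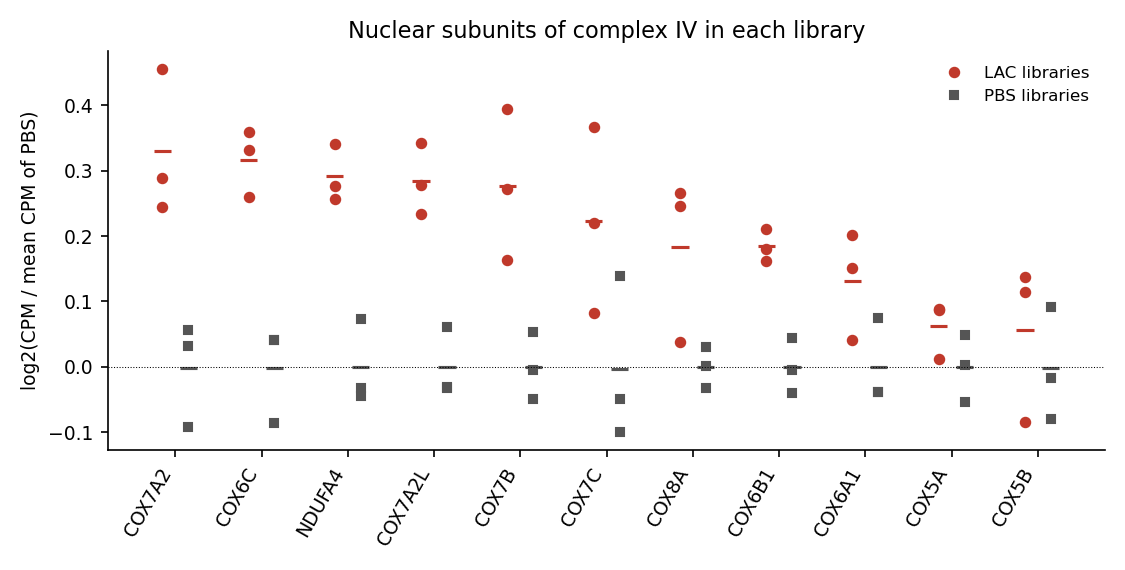
Nuclear subunits of complex IV taken by the name rule at 1 CPM or more, as log2 of each library's CPM over the mean CPM of the PBS libraries, with LAC libraries as red circles left of PBS libraries as grey squares and short bars at the group means. COX7A2, COX6C and NDUFA4 show LAC libraries clear of the PBS libraries, while COX7C, COX6A1, COX5A and COX5B overlap.

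Complex III, the cytochrome bc1 complex, split by the role of its subunits. The small subunits without redox centres had 4 rises among 6 tested, the core proteins UQCRC1 and UQCRC2 had none, and CYC1, which carries the haem of cytochrome c1, fell. UQCRFS1, like CYC1 a nuclear catalytic subunit, was not called. UQCR10, a small subunit near cytochrome c1, had 23.1, 23.0 and 21.8 CPM in LAC and 19.5, 16.5 and 19.0 CPM in PBS. It rose 1.24-fold (log2 fold change 0.31, SE 0.07, adjusted p = 0.00757) without overlap. UQCR11, the smallest subunit of the complex by residues, had 30.5, 29.9 and 27.0 CPM in LAC and 26.1, 23.0 and 22.4 CPM in PBS, a rise of 1.22-fold (0.29, SE 0.07, adjusted p = 0.00742), also without overlap.

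UQCRQ and UQCRB, small subunits that contact cytochrome b, rose 1.22-fold (adjusted p = 0.0192) and 1.15-fold (adjusted p = 0.0333), with overlapping groups. UQCRB had 119, 110 and 100 CPM in LAC and 104, 89.7 and 92.1 CPM in PBS, so the highest PBS library stood above the lowest LAC library. The UQCRQ call was lost without LAC library 1, PBS library 2 or PBS library 3 (adjusted p up to 0.086), and the UQCRB call without any of these or LAC library 2 (up to 0.137). The complex III rises numbered 2 without LAC library 1, PBS library 2 or PBS library 3. UQCRH, the acidic hinge protein, and its near copy UQCRHL had log2 fold changes of 0.16 (adjusted p = 0.0741) and 0.17 (adjusted p = 0.476). How reads shared by these copies were assigned is not given in the sources used here.

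CYC1 had 83.6, 88.5 and 89.0 CPM in LAC and 101, 103 and 98.9 CPM in PBS. It was lower by -0.21 on the log2 scale (SE 0.04, adjusted p = 0.00106), with every LAC library below every PBS library. UQCRFS1, the Rieske iron-sulphur protein and the other nuclear catalytic subunit, showed a log2 fold change of 0.03 (adjusted p = 0.57). UQCRC1 and UQCRC2, the large core proteins, had log2 fold changes of -0.00012 (adjusted p = 0.999) and -0.06 (adjusted p = 0.242).

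Complex I, NADH dehydrogenase, is the largest complex of the chain. Among its 29 tested nuclear accessory subunits 6 rose and 1 fell, and among its 7 nuclear core subunits, which hold the flavin and the iron-sulphur clusters, 1 rose and 2 fell. Of its 36 nuclear subunits 19.4% were called higher, near the 18.7% of all genes tested, and 8.33% lower, against 16.7%. The summed core transcripts stood at 439, 441 and 439 CPM in LAC and at 457, 468 and 461 CPM in PBS, without overlap. The summed accessory transcripts stood at 1065, 1066 and 1017 CPM in LAC and at 1031, 997 and 989 CPM in PBS, with overlap.

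NDUFV1, the core subunit that binds flavin and NADH, had 90.8, 89.4 and 87.1 CPM in LAC and 99.2, 105 and 111 CPM in PBS. It was lower by -0.24 on the log2 scale (SE 0.04, adjusted p = 0.00151). NDUFS8, a core subunit with iron-sulphur clusters, had 45.8, 50.8 and 49.0 CPM in LAC and 58.0, 62.1 and 56.3 CPM in PBS, lower by -0.28 (SE 0.05, adjusted p = 0.00105). NDUFB9, an accessory subunit of the membrane arm, had 44.0, 44.8 and 43.9 CPM in LAC and 55.4, 52.9 and 51.5 CPM in PBS, lower by -0.27 (SE 0.04, adjusted p = 0.000277). None of these 3 genes overlapped between groups, and each kept its call when any 1 library was left out. NDUFV1 (chromosome 11, 67605653 to 67612554) and NDUFS8 (chromosome 11, 68030617 to 68036644, both plus strand, GRCh38) lie 418 kb apart. NDUFS3, another core subunit, had every LAC library below every PBS library at a log2 fold change of -0.12 but was not called (adjusted p = 0.0557).

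The accessory rises of complex I were led by NDUFA1, a short membrane protein needed for assembly, at 32.1, 29.9 and 30.3 CPM in LAC and 25.8, 22.3 and 23.5 CPM in PBS. It rose 1.29-fold (log2 fold change 0.37, SE 0.06, adjusted p = 0.000703). NDUFS5, which lies on the side facing the space between the membranes, had 80.4, 77.5 and 68.6 CPM in LAC and 64.4, 55.0 and 58.8 CPM in PBS, a rise of 1.27-fold (0.35, SE 0.06, adjusted p = 0.00146). Neither overlapped between groups. NDUFB2, NDUFB4, NDUFA2 and NDUFA8, accessory subunits of both arms, rose 1.13-fold (adjusted p = 0.00992), 1.11-fold (0.0156), 1.11-fold (0.0266) and 1.11-fold (0.0268). NDUFV2, the core partner of NDUFV1 with an iron-sulphur cluster, rose 1.11-fold (adjusted p = 0.0132), so the pair moved in opposite directions.

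Those 5 smaller rises depended on single libraries. The NDUFB2 call was lost without PBS library 3 (adjusted p 0.0534). The NDUFB4 call was lost without LAC library 2, PBS library 2 or PBS library 3 (up to 0.0779), and the NDUFV2 call without LAC library 3, PBS library 2 or PBS library 3 (up to 0.0831). The NDUFA2 call held only without PBS library 3 (up to 0.104 otherwise), and the NDUFA8 call only without LAC library 3 or PBS library 2 (up to 0.113 otherwise). The 7 complex I rises numbered 4 without LAC library 2 or PBS library 2 and 3 without PBS library 3. NDUFAB1, the acyl carrier protein that is also a subunit, falls outside the name rule and showed a log2 fold change of 0.04 (adjusted p = 0.626).

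Complex II, succinate dehydrogenase, shares its catalytic part with the tricarboxylic acid cycle and is wholly nuclear encoded. Its 4 transcripts differed little between the groups. SDHC, a membrane anchor, had 135, 137 and 135 CPM in LAC and 128, 122 and 126 CPM in PBS, a rise of 1.08-fold (log2 fold change 0.11, SE 0.03, adjusted p = 0.0246). The call held only without PBS library 1, and the adjusted p reached 0.0921 otherwise. SDHA, the flavoprotein, had 116, 114 and 120 CPM in LAC and 124, 122 and 123 CPM in PBS, which did not overlap but were not called (log2 fold change -0.08, adjusted p = 0.102). SDHB, the iron-sulphur subunit, and SDHD, the other anchor, had log2 fold changes of -0.01 (adjusted p = 0.885) and -0.05 (adjusted p = 0.335).

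Complex V, the ATP synthase, has a catalytic F1 head, a peripheral stalk and a membrane-embedded Fo part with its rotating c ring. Of 5 tested nuclear Fo subunits outside the c ring 4 rose, whereas among the 5 F1 subunits and the 4 stalk subunits 1 rose in each and among the 3 c ring genes none did. ATP5F1E, the small epsilon subunit of F1, had 79.6, 78.5 and 66.0 CPM in LAC and 65.5, 56.5 and 57.4 CPM in PBS. It rose 1.25-fold (log2 fold change 0.32, SE 0.07, adjusted p = 0.00477), with the lowest LAC library just above the highest PBS library. ATP5F1B, the catalytic beta subunit, had 594, 599 and 597 CPM in LAC and 593, 600 and 598 CPM in PBS (log2 fold change -0.00022, adjusted p = 0.997), the smallest change among the subunits of complex V.

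ATP5MPL, a short Fo protein, had 46.1, 45.2 and 45.3 CPM in LAC and 40.1, 33.9 and 39.3 CPM in PBS, a rise of 1.21-fold (log2 fold change 0.27, SE 0.06, adjusted p = 0.00335) without overlap. ATP5PF, a stalk subunit also called coupling factor 6, had 40.5, 40.6 and 36.4 CPM in LAC and 33.7, 33.7 and 33.9 CPM in PBS, a rise of 1.16-fold (0.22, SE 0.05, adjusted p = 0.00546), also without overlap. ATP5MG, ATP5MD and ATP5ME, short Fo proteins that take part in the pairing of ATP synthases, rose 1.15-fold (adjusted p = 0.0118), 1.13-fold (0.03) and 1.35-fold (0.037). ATP5ME had the largest fold among nuclear subunits at a low count, with 6.57, 5.38 and 7.01 CPM in LAC and 4.98, 3.92 and 5.11 CPM in PBS.

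Those last 3 calls depended on single libraries, and the 6 rises of complex V numbered 4 without LAC library 1, LAC library 2, PBS library 2 or PBS library 3. ATP5MG was lost without LAC library 1, LAC library 2 or PBS library 3 (adjusted p up to 0.0581). ATP5MD was lost without LAC library 2, LAC library 3, PBS library 2 or PBS library 3 (up to 0.14), and ATP5ME without LAC library 1, LAC library 3, PBS library 1 or PBS library 2 (up to 0.139). ATP5MC1, ATP5MC2 and ATP5MC3, which encode the same mature c subunit, had log2 fold changes of -0.06 (adjusted p = 0.211), 0.11 (0.0782) and -0.04 (0.408). ATP5IF1, which blocks the synthase when it runs in reverse, showed a log2 fold change of 0.07 (adjusted p = 0.398).

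Levels between genes are given per length, in the authors' FPKM. Their order depends on the transcript lengths used, and the annotation behind these is not given. SDHC, the lowest of complex II by FPKM, had the highest mean CPM of that complex, at 136 in LAC and 125 in PBS. Among nuclear subunits ATP5F1B was highest, at 301 ± 1.35 FPKM in LAC and 309 ± 4.71 FPKM in PBS (SD, n = 3 each). Of the complex IV nuclear subunits taken by the name rule, COX6A1 was highest, at 190 ± 10.5 FPKM in LAC and 178 ± 6.30 FPKM in PBS. COX4I1, which falls outside the rule, had a higher mean FPKM than COX6A1 in both groups. The highest of complex I was NDUFS5 at 128 ± 10.3 FPKM in LAC and 103 ± 7.41 FPKM in PBS. That of complex III was UQCRH at 85.8 ± 8.51 and 78.9 ± 2.37, and that of complex II SDHA at 47.4 ± 1.28 and 51.8 ± 1.82. The lowest were NDUFA9 of complex I at 7.12 ± 0.184 FPKM in LAC and 7.28 ± 0.224 FPKM in PBS, SDHC at 14.4 ± 0.853 and 13.7 ± 1.08, and ATP5ME at 16.0 ± 2.13 and 12.1 ± 1.69. The near copy UQCRHL, at 1.21 ± 0.106 FPKM in LAC and 1.11 ± 0.12 FPKM in PBS, and the isoform COX6B2, at 0.187 ± 0.0414 and 0.165 ± 0.0357, were the lowest tested members of complexes III and IV.

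The subunits that rose were mostly short proteins, a property that the choice of genes did not use. Among the 23 tested nuclear subunits with an annotated protein of up to 100 residues, 15 rose and 0 fell in edgeR's test (median log2 fold change 0.26). Among the 37 of over 100 and up to 200 residues, 10 rose and 1 fell (median 0.08), and among the 20 of over 200 residues, 1 rose and 3 fell (median -0.0059). The 10 rises of the middle class numbered 6 without LAC library 1, 5 without LAC library 2, 4 without PBS library 3 and 4 on log2(FPKM + 1). The sizes of these classes were chosen after the values were seen. Over the 78 subunits with a mean of at least 1 CPM, log2 fold change and protein length had a Spearman rho of -0.708 and a Pearson r of -0.641 on the log2 length. This is a correlation across genes, which are not independent replicates and share the same 6 libraries.

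The same relation was weak in other protein-coding genes at that level, with a rho of -0.0685 over 12393 genes. Other genes with proteins of up to 100 residues also leaned upward, with 31.7% of 249 called higher, 5.62% lower and a median of 0.09. For subunits of that size and level, 71.4% of 21 were called higher and none lower. In the middle class 27.0% of 37 subunits and 25.4% of 1293 other genes were called higher, and above 200 residues 5.0% of 20 subunits and 20.7% of 10851 other genes. Against transcript length in place of protein length, rho was -0.17 over the 78 subunits and 0.0665 over the other genes. Transcript length was that of a single annotated transcript per gene, such as 3665 bases for ATP5F1E with its 51 residues. Which transcripts the cells mainly express was not tested, so the part of mRNA length was not tested either. Across the alternative fits the rho over subunits against protein length stayed between -0.728 and -0.645.

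**Figure D3:**
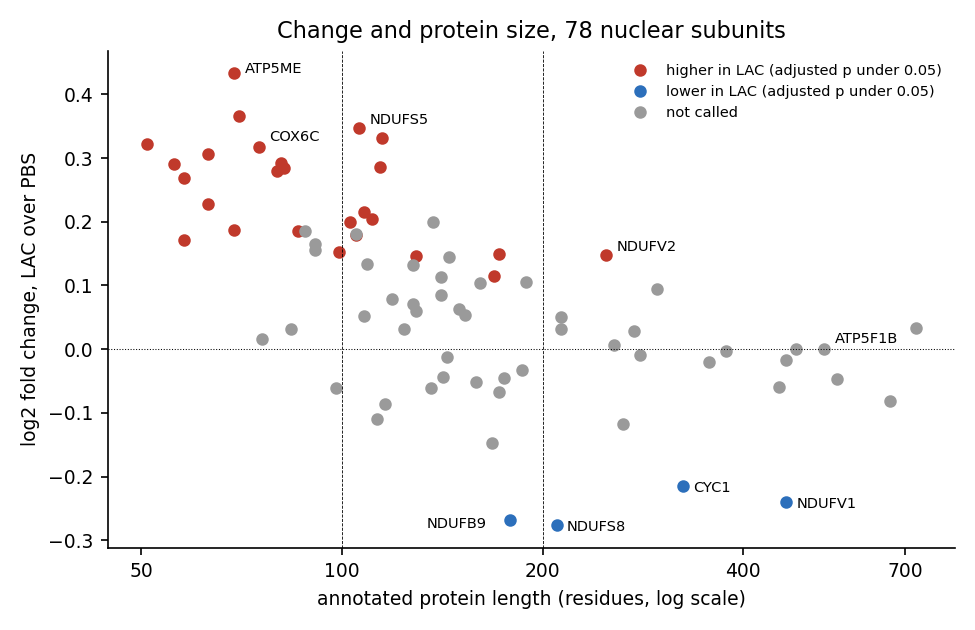
Log2 fold change (LAC over PBS) against annotated protein length in residues, on a log axis, for the 78 nuclear subunits with a mean of at least 1 CPM, with dashed lines at 100 and 200 residues. Red points (called higher) gather at the left among short proteins, and 3 of the 4 blue points (called lower), NDUFV1, NDUFS8 and CYC1, lie to the right of 200 residues, with NDUFB9 just short of it.

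Libraries of one group also differed in the short subunits. The summed transcripts of the 23 short subunits stood at 1015, 976 and 912 CPM in LAC and at 870, 785 and 815 CPM in PBS, so the groups did not overlap. Their median log2 ratio to the PBS mean was 0.30, 0.25 and 0.16 in the LAC libraries and 0.08, -0.09 and -0.02 in the PBS libraries. LAC library 3 and PBS library 1 lay closest to each other across the groups. The 15 rises numbered 10 without LAC library 1 and 9 without PBS library 2, 11 with the trend with transcript length removed from each library, 10 on log2(FPKM + 1) and 7 on those values without a filter, with 0 falls in each. For subunits over 200 residues the sums were 2533, 2504 and 2523 CPM in LAC and 2582, 2582 and 2534 CPM in PBS.

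The mitochondrial genome encodes 13 subunits, all hydrophobic core proteins of complexes I, III, IV and V. Their mRNAs are cut out of long shared transcripts, and differ in processing and decay. Most were not called: 2 rose, 2 fell and 9 were not called, and for all genes tested the share called in either direction was 35.4%. By length-scaled level they were the highest of the pathway, with PBS means of 800 FPKM for MT-ND3 to 20677 FPKM for MT-CO1. The ratio of summed mitochondrial to summed nuclear subunit CPM was 15.9, 18.5 and 18.6 in LAC and 19.6, 18.6 and 17.9 in PBS, which overlapped.

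MT-ND3, a small core subunit of complex I, had 370, 405 and 355 CPM in LAC and 328, 271 and 276 CPM in PBS. It rose 1.29-fold (log2 fold change 0.37, SE 0.07, adjusted p = 0.00149) and was the 1 mitochondrial mRNA with every LAC library above every PBS library. MT-CYB, cytochrome b and the 1 mitochondrial subunit of complex III, had 5835, 6385 and 6494 CPM in LAC and 8049, 7124 and 6882 CPM in PBS. It was lower by -0.24 on the log2 scale (SE 0.05, adjusted p = 0.00405) with every LAC library below every PBS library. Both calls held when any 1 library was left out. Within complex III the catalytic subunits CYC1 and MT-CYB were thus both lower in LAC, the first encoded in the nucleus and the second in mitochondrial DNA. The remaining catalytic subunit, UQCRFS1, was not called (log2 fold change 0.03).

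MT-ND5, a proton-pumping subunit of complex I, had 4095, 4729 and 4714 CPM in LAC and 5583, 5323 and 4695 CPM in PBS, which overlapped. It was lower by -0.20 (SE 0.06, adjusted p = 0.023), and the call was lost without LAC library 1, PBS library 1 or PBS library 2 (up to 0.0888). MT-CO3, a core subunit of complex IV, had 8879, 10369 and 9601 CPM in LAC and 9396, 8015 and 8206 CPM in PBS. It rose 1.13-fold (adjusted p = 0.0414) with overlap, and the call was lost without LAC library 2, LAC library 3, PBS library 2 or PBS library 3 (up to 0.197). DESeq2 gave an adjusted p of 0.185 for MT-CO3.

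LAC library 1 stood apart in several mitochondrial mRNAs. MT-ATP8, a small Fo subunit whose reading frame overlaps that of MT-ATP6, had 623, 1477 and 1209 CPM in LAC and 1371, 1342 and 1032 CPM in PBS (log2 fold change -0.18, SE 0.23, adjusted p = 0.587). MT-ATP6, the Fo subunit that forms the proton channel, had 5647, 7573 and 7592 CPM in LAC and 7698, 7116 and 6602 CPM in PBS (-0.04, adjusted p = 0.766). MT-ND6, a core subunit of complex I and the 1 protein gene on the opposite strand, had 468, 818 and 764 CPM in LAC and 979, 941 and 785 CPM in PBS (-0.40, SE 0.16, adjusted p = 0.0717). In each of the 3, LAC library 1 was the lowest of the 6 libraries. Without it, the log2 fold change of MT-ND6 was -0.19 (adjusted p = 0.0872), and MT-ND2, MT-ND3 and MT-CO3 were called higher and MT-CYB lower. Without PBS library 1, MT-ND3, MT-CO2 and MT-CO3 were called higher and MT-CYB lower.

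MT-ND6 ends next to MT-ND5 on the map, at positions 14149 to 14673 and 12337 to 14148, and the strand setting of the counts is not given in the sources used here. The other mitochondrial subunits of complex I, MT-ND1, MT-ND2, MT-ND4 and MT-ND4L, had log2 fold changes of -0.02 (adjusted p = 0.909), 0.07 (0.361), -0.04 (0.617) and 0.04 (0.688). MT-ND4L and MT-ND4 overlap by a few bases on the genome, and how reads there were counted is not given in the sources used. MT-CO1 and MT-CO2, which hold the haem and copper centres of complex IV, had log2 fold changes of -0.06 (adjusted p = 0.221) and 0.09 (0.115). The mitochondrial core of complex IV summed to 52039, 57193 and 55561 CPM in LAC and to 57990, 53551 and 51747 CPM in PBS, which overlapped, while its nuclear coat did not.

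**Figure D4:**
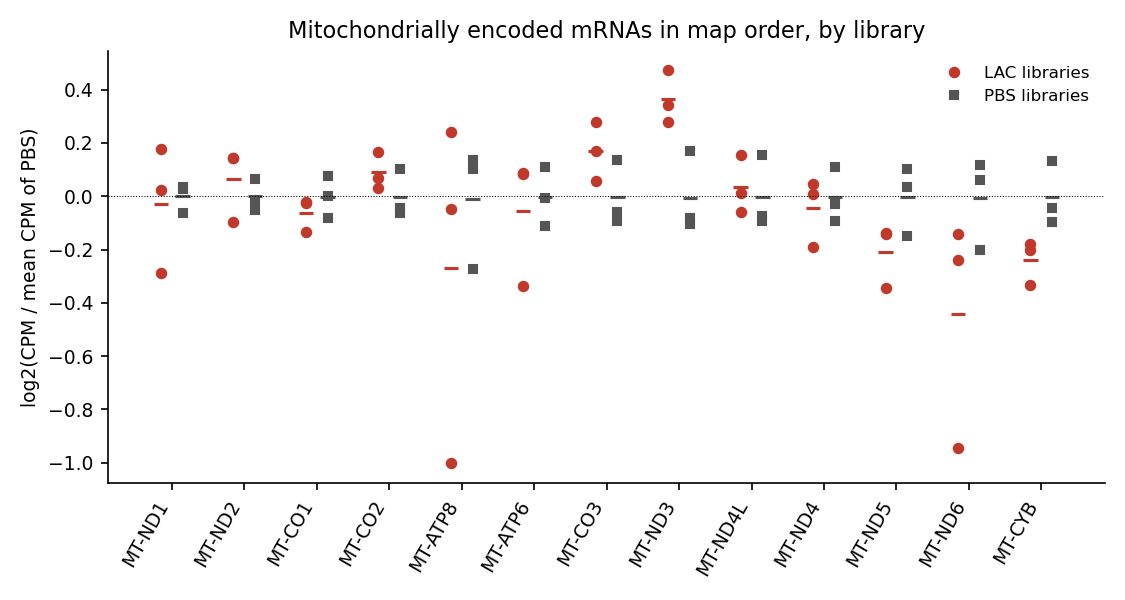
The 13 mitochondrially encoded mRNAs in map order, as log2 of each library's CPM over the mean CPM of the PBS libraries, with LAC libraries as red circles left of PBS libraries as grey squares and short bars at the group means. MT-ND3 is higher and MT-CYB lower in all LAC libraries, and 1 LAC library lies far below the others in MT-ATP8 and MT-ND6.

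Assembly factors put the subunits and their cofactors together without staying in the finished complex. Over the lists of other pathway genes, the counts below are read against 18.7% of all genes called higher and 16.7% lower. Of 22 factors that assemble complex IV, 5 rose and 2 fell, with a median log2 fold change of 0.04. COX20, a chaperone of the mitochondrially encoded subunit COX2, had 18.5, 17.9 and 16.5 CPM in LAC and 9.43, 7.54 and 8.01 CPM in PBS. It rose 2.12-fold (log2 fold change 1.08, SE 0.10, adjusted p = 7.32e-06), more than any subunit. COX14, which acts in early steps of COX1 maturation, rose 1.37-fold (0.46, adjusted p = 0.000933), and COA6, a copper-handling factor, rose 1.19-fold (adjusted p = 0.00989), a call lost without LAC library 2 (0.06). SCO1, a copper chaperone, was lower at -0.23 (adjusted p = 0.000566), as was COX15, an enzyme of haem A synthesis, at -0.12 (adjusted p = 0.0271). The COX15 call was lost without any 1 LAC library or without PBS library 3 (up to 0.0996).

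Of 18 complex I factors, 1 rose and 3 fell (median -0.05), and the share that fell equals the 16.7% of all genes called lower. NDUFAF1 rose 1.27-fold (adjusted p = 0.0116), a call lost without PBS library 3 (0.0544). FOXRED1, NUBPL, which delivers iron-sulphur clusters, and ACAD9 were lower at -0.30 (adjusted p = 0.00488), -0.27 (0.00926) and -0.16 (0.0212), and the ACAD9 call was lost without LAC library 2 or PBS library 2 (up to 0.0783). Of 6 complex III factors 3 fell: TTC19 at -0.15 (adjusted p = 0.00444), LYRM7, a chaperone of the Rieske protein, at -0.34 (0.00502), and BCS1L, which inserts that protein, at -0.20 (0.0398). The BCS1L call held only without LAC library 2 (up to 0.096 otherwise). None of the 4 factors for complex II and the 4 for complex V were called.

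Genes that maintain and express mitochondrial DNA had falls and no rises, where over all genes tested 16.7% were called lower and 18.7% higher. Of 23 tested genes of mitochondrial transcription and RNA handling 5 fell (median -0.08), led by the mitochondrial RNA polymerase POLRMT at 32.9, 34.7 and 34.2 CPM in LAC and 40.0, 39.2 and 41.2 CPM in PBS (log2 fold change -0.24, SE 0.04, adjusted p = 0.00102). MTERF3, a regulator of this transcription, and ELAC2, which trims the ends of mitochondrial tRNAs, were lower at -0.27 (adjusted p = 0.00223) and -0.19 (0.00502). Of 11 genes of mitochondrial DNA replication 5 fell (median -0.13), among them the nuclease-helicase DNA2 at -0.23 (adjusted p = 0.00304), the nuclease MGME1 at -0.17 (0.00416) and the helicase TWNK at -0.20 (0.0162). The calls of SUPV3L1, SSBP1 and RNASEH1, also among these falls, depended on single libraries. SUPV3L1 was lost without LAC library 1, LAC library 2, PBS library 2 or PBS library 3 (adjusted p up to 0.161). SSBP1 was lost without LAC library 2, LAC library 3, PBS library 1 or PBS library 2 (up to 0.112). RNASEH1 held only without PBS library 1 (up to 0.168 otherwise). TFAM, which packages mitochondrial DNA and was named after its value was seen, showed a log2 fold change of -0.05 (adjusted p = 0.385).

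Among 10 tested nuclear regulators of mitochondrial biogenesis, 1 rose and 4 fell (median -0.10). GABPB1, the partner of GABPA, YY1 and the coactivator PPRC1 were lower at -0.23 (adjusted p = 0.00282), -0.14 (0.00704) and -0.17 (0.00968), and NRF1 at -0.31 (0.0242). The NRF1 call, named after its value was seen because its motif is shown above, was lost without LAC library 2, PBS library 1 or PBS library 3 (up to 0.0958). The deacetylase SIRT1 rose 1.20-fold (adjusted p = 0.000313). PPARGC1A, the best known coactivator of this programme, had 0 counts in all 6 libraries.

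A list of factors known to trim or switch the respiratory chain in low oxygen had 5 rises and no falls among 8 tested, with a median log2 fold change of 0.37. BNIP3L and BNIP3, receptors for the autophagy of mitochondria, rose 1.65-fold (adjusted p = 1.58e-07) and 2.06-fold (2.33e-07). BNIP3 had 175, 172 and 168 CPM in LAC and 92.2, 82.4 and 75.8 CPM in PBS. PDK1, the kinase that shuts pyruvate dehydrogenase, rose 1.88-fold (adjusted p = 6.88e-06). NDUFA4L2 is a member of this list as well as of complex IV, and as given above it was under 1 CPM and not called.

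Carriers on either side of the chain also moved. Of 9 genes for adenine nucleotide, phosphate and outer membrane exchange and uncoupling, 5 rose and 1 fell. SLC25A3, the phosphate carrier that supplies the ATP synthase, had 599, 598 and 597 CPM in LAC and 534, 520 and 520 CPM in PBS (1.14-fold, adjusted p = 0.000235). SLC25A6, an ADP/ATP carrier, and the outer membrane channel VDAC2 rose 1.11-fold (adjusted p = 0.00425) and 1.12-fold (0.00426). UCP2, a relative of the uncoupling protein, had 14.7, 15.1 and 14.9 CPM in LAC and 28.0, 28.9 and 26.6 CPM in PBS (log2 fold change -0.90, SE 0.06, adjusted p = 8.79e-07), the largest fall among all the pathway genes listed here.

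Among 14 genes of cytochrome c and coenzyme Q, 3 rose and 2 fell, near the 18.7% higher and 16.7% lower of all genes tested. COQ10A and COQ10B, coenzyme Q binding proteins, rose 1.30-fold (adjusted p = 0.00294) and 1.27-fold (0.00429), and the hydroxylase COQ7 rose 1.29-fold (0.0151). COQ4 and the methyltransferase COQ3, both of coenzyme Q synthesis, were lower at -0.29 (adjusted p = 0.00609) and -0.42 (0.0215). The COQ7 call was lost without LAC library 2, LAC library 3, PBS library 2 or PBS library 3 (up to 0.0676), and the COQ3 call without LAC library 1, LAC library 3 or PBS library 2 (up to 0.0845).

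Of 19 genes of import into and folding in mitochondria, 4 rose and 6 fell, against 18.7% higher and 16.7% lower over all genes tested. The receptor TOMM20 and the import motor subunit TIMM44 rose 1.11-fold (adjusted p = 0.00522) and 1.18-fold (0.0113), and the carrier translocase TIMM22 rose 1.10-fold (0.0393), a call that held only without PBS library 1 (up to 0.191 otherwise). The outer membrane channel TOMM40, the chaperonin HSPD1 and the inner membrane receptor TIMM50 were lower at -0.30 (adjusted p = 0.00028), -0.15 (0.00105) and -0.17 (0.00546).

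**Figure D5:**
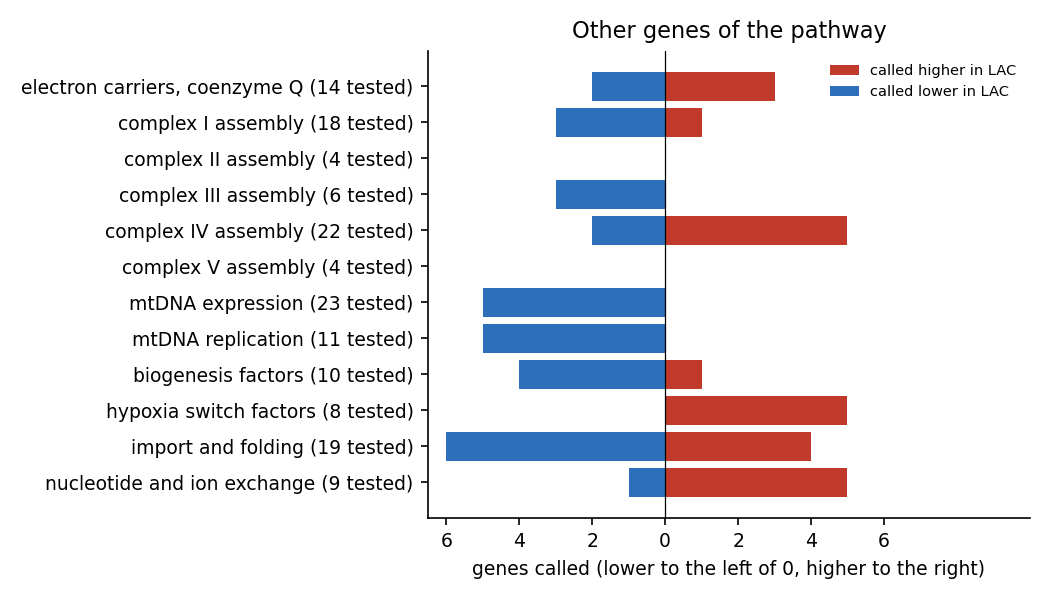
Number of genes called higher in LAC (red, right of 0) and lower in LAC (blue, left of 0) at an adjusted p under 0.05 in each list of other pathway genes, with the number tested beside each name. Only the low-oxygen list has rises without falls, and the 2 lists on mitochondrial DNA and the complex III assembly list have falls without rises.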

How the data were processed

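Poly(A) RNA of A549 cells was captured with oligo(dT) beads and read as 150 bp pairs, per the labels' protocols, in 3 LAC and 3 PBS libraries. The authors deposited whole-number counts per gene and FPKM per gene for these 6 libraries. Per the submitters' processing notes, HISAT2, StringTie, DESeq2 and build GRCh38 are named without versions or roles. The annotation, the strand setting and how multi-mapped reads were treated are not given in the sources used. Reads shared by near copies or overlapping genes are therefore uncertain. The deposited table has 23827 rows, of which 3853 are unnamed loci; symbols, coordinates and protein lengths came from GENCODE 29 through 19974 Ensembl identifiers, and promoter windows from RefSeq.

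Counts were tested in R 4.3.3 with edgeR 4.0.16 (two-sided quasi-likelihood F test), with TMM factors (0.988 to 1.02), filterByExpr (minimum count 10, minimum total 15) and Benjamini-Hochberg adjustment over 15474 genes. The standard error is the log2 fold change divided by the square root of F. Fold changes are LAC over PBS. The fit was also run on simulated counts in which few genes changed and libraries varied independently. That setting is simpler than these data, and no result here rests on it. Replicates of one group differed by more than counting noise (chi-square per degree of freedom 6.27 to 9.11).

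The alternatives were median-ratio factors, library totals, DESeq2 1.42.0, limma-voom and limma-trend (limma 3.58.1) on FPKM with a pseudocount of 1 or 0.1, for genes at 1 FPKM or more in 3 libraries or unfiltered, no filter on counts, at least 50 counts in 3 libraries, nuclear genes only, the replicate number as a block, and each library left out. Removal of the trend with transcript length or GC content from each library, and the classes of protein size, were chosen after seeing the data. The members, roles and lists were chosen with earlier results of these data known. The rule named all mitochondrial mRNAs and SDH genes, up to 6 called subunits per complex and direction by smallest p, the highest and lowest subunit by FPKM, isoform sets, and up to 3 genes per list and direction at 1 CPM or more; other genes named were chosen after their values were seen. Lists were counted and not tested as sets.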

Additional observations from a re-analysis of the deposited data

How the results depend on the processing

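The effects are small, and the number of called subunits depends on single libraries and on the table used. The direction differed in at least 1 fit for 1 of the 34 called subunits and for 23 of the 60 tested members that were not called, among them MT-ATP8, MT-ATP6, MT-ND1 and MT-ND4. The nuclear-encoded subunits called higher, 26 with edgeR on counts, numbered 14 on log2(FPKM + 1), 14 on log2(FPKM + 0.1), 10 on log2(FPKM + 1) without a filter, 17 with the transcript length trend removed, and 15 to 27 when 1 library was left out. Those called lower, 4, numbered 7 on log2(FPKM + 1), 7 on log2(FPKM + 0.1), 7 with the length trend removed, 7 with the GC trend removed, and 4 to 5 with 1 library left out. The mitochondrially encoded subunits called higher, 2, numbered 1 with library totals alone, 1 with DESeq2, 1 on each of the 3 FPKM scales, 1 with the length trend removed, 1 with the GC trend removed, and 1 to 3 with 1 library left out; those called lower, 2, numbered 1 with DESeq2, 0 on log2(FPKM + 1) without a filter, and 1 to 3 with 1 library left out. Of all genes tested, 2892 were called higher, against 1803, 1798 and 1618 on the FPKM scales. Of the 34 called subunits, 19 kept their call in all 6 fits with a library left out, 13 of them nuclear rises.

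COX7B was the 1 called subunit that changed direction, to -0.13 on log2(FPKM + 1) (adjusted p = 0.567), -0.13 on log2(FPKM + 0.1) (0.568) and -0.13 without a filter (0.692); the cause was not tested. The replicate number as a block gave 30 nuclear rises, 4 nuclear falls, 1 mitochondrial rise and 3 mitochondrial falls. Deviations of libraries with the same number correlated at 0.0218, -0.0239 and 0.031. These values show no sign of pairing, but they cannot tell whether libraries were prepared in pairs. Library totals alone moved the median of all genes to -0.02, and 22 nuclear subunits were then called higher and 6 lower. Subunits under 1 CPM could not be separated at this depth.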

Other observations

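Among genes of mitochondrial RNA handling, PRORP, the nuclease subunit of mitochondrial RNase P, was chosen after its values were seen because 1 library stood apart. It had 22.0, 44.5 and 36.0 CPM in LAC and 50.5, 36.9 and 39.5 CPM in PBS (log2 fold change -0.30, adjusted p = 0.255 in edgeR). LAC library 1 was the lowest of the 6 libraries for PRORP, as it was for MT-ATP8, MT-ATP6 and MT-ND6. PPARGC1B, a coactivator of mitochondrial biogenesis, had 7.80, 6.49 and 1.41 CPM in LAC and 6.92, 7.10 and 7.36 CPM in PBS (-0.44, adjusted p = 0.424), with LAC library 3 far below the others.

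ATP5MF-PTCD1, a readthrough of an ATP synthase gene and its neighbour, had 0, 0 and 18 counts in LAC and 2, 1 and 0 counts in PBS, so that nearly all of its reads came from LAC library 3.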
